A study of Rattus norvegicus with 36 samples.

Results

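Genes of tendon and cartilage matrix were followed in rat soleus muscle after spinal cord injury (SCI) and treadmill training (TM). Of 10 genes listed, 7 were measured, namely Comp, Chad, Tnmd, Thbs4, Fmod, Scx and Ctgf, out of 14217 genes that have a probe set of 1 symbol. Kera, Cilp and Prg4 were not analysed here. Each of the 7 genes has 1 such probe set, and all 7 lie above the 40th percentile of mean log2 signal. The genes were chosen by their low signal 3 days after injury, so every value of SCI3d against controls below is a description and carries no test. The study used adult female Sprague Dawley rats, 16 weeks old, with 6 arrays in each of 6 groups and 1 array per rat, taken from left soleus. Control rats (CTR) were age-matched and uninjured. The injured rats had a moderate contusion of the thoracic cord and were examined 3, 8 or 14 days later without training (SCI3d, SCI8d, SCI14d), or with training begun on day 7. Rats of SCI8d + TM had 3 sessions of 20 min, those of SCI14d + TM had 5 days with 2 sessions a day, and trained muscle was taken 8 h after the last session.

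Tendon carries the force of muscle to bone, and its matrix of collagen fibrils is laid down by tendon fibroblasts that respond to mechanical load. Small proteins bind the fibrils and set how they assemble and cross-link, and several of them are shared with cartilage, which is also a loaded tissue. In muscle the same kinds of protein occur where fibers insert into tendon and in the connective tissue around fibers. Within the group, Comp and Thbs4 are thrombospondins that bind collagen. Chad (chondroadherin) and Fmod (fibromodulin) are leucine-rich repeat proteins of the matrix. Tnmd (tenomodulin) is a membrane protein of mature tendon cells, Scx (scleraxis) is the transcription factor that marks tendon cells and their progenitors, and Ctgf, which the probe annotation lists as Ccn2, is a secreted protein of the CCN family induced by TGF-beta and by stretch.

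Promoter sequences from RefSeq (build GRCr8) were available for 6 of the 7 genes, Scx being the exception, and 4 of them are shown because they hold a site sought here. Each stretch is the 250 bases before the gene's start, written 5′ to 3′ on the gene's strand. Capitals mark CANNTG, the E-box bound by scleraxis and other basic helix-loop-helix factors, and GGAATG, the element bound by TEAD factors, which act with the load-responsive coactivators YAP and TAZ. Both strands were searched, and the motifs do not overlap one another. The Comp stretch is chr16:19089549-19089798 on the minus strand, that of Chad is chr10:80008795-80009044 on the plus strand, that of Thbs4 is chr2:25760346-25760595 on the minus strand and that of Ctgf is chr1:22624615-22624864 on the minus strand.
Comp: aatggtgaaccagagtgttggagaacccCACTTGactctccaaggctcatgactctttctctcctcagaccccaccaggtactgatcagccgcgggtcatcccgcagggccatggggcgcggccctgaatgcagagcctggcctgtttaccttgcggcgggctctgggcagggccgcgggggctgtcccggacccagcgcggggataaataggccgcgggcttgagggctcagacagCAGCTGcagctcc
Chad: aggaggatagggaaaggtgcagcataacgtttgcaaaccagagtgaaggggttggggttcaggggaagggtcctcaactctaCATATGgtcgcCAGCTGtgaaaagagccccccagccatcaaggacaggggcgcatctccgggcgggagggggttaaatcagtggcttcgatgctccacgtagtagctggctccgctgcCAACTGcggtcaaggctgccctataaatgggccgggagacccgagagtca
Thbs4: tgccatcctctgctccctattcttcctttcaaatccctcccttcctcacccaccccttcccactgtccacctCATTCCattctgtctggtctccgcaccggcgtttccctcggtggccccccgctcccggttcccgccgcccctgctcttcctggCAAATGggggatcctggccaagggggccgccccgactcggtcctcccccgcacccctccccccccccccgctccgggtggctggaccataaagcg
Ctgf: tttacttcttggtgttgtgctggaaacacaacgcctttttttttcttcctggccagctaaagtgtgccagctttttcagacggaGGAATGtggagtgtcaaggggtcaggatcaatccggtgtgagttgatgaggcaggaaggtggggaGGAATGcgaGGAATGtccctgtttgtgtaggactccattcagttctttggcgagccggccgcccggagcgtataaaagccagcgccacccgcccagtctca
The Ctgf promoter held 3 copies of GGAATG, whose first bases lie 166, 101 and 92 bases before the start. At least 3 copies were present in 27 of the 33469 rat promoter stretches of this length (0.0807%), and at least 1 copy in 12.1%. Thbs4 held 1 copy, read on the opposite strand as CATTCC. Chad held 3 E-boxes and Comp held 2, against at least 3 in 11.5% and at least 2 in 30.8% of all promoters. The stretches of Tnmd (chrX:101350182-101350431) and Fmod (chr13:48045317-48045566), both on the plus strand, held neither motif. These matches describe the letters of the window and were not tested for binding.

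Signals are linear MAS5 intensities, scaled by the authors so that arrays share a trimmed mean, and differences are given on the log2 scale with the standard error of the fit. The median signal of an array ran from 166.4 to 234.3, which gives a scale for the values below. By mean log2 signal over all arrays, Thbs4 (14.70) and Ctgf (13.77) lay at the 99.4th and 98.6th percentile of probe sets and Chad (9.58) at the 73.7th. These places rank probe sets and not transcripts. The summed signal of 10 genes listed for slow fibers, with Ckm, Acta1 and Actn2 among them, ran from 289222.3 to 751833.4 over the arrays. It was not compared with another muscle. The log2 ratio of the 3′ to the 5′ GAPDH control probe sets was 0.69 in CTR replicate 3, 0.43 in SCI14d replicate 4 and 0.41 in SCI14d + TM replicate 1, and at most 0.27 elsewhere.

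At day 3 after injury the signals of 6 of the 7 genes were lower than in controls. The log2 difference of SCI3d to CTR was -3.53 for Comp, -3.49 for Chad, -2.38 for Tnmd, -2.05 for Scx, -1.98 for Fmod, -1.27 for Ctgf and -0.10 for Thbs4. The median was -2.05, beside -0.04 over all probe sets. In Comp, Scx and Ctgf all 6 SCI3d arrays lay below all 6 controls, which 4.31% of probe sets did. Of the 7 genes 6 were lower at an adjusted p under 0.05 in limma, beside 9.24% of all probe sets lower and 16.5% called in either direction, and nothing is read from that count because this contrast chose the genes. In whole muscle, fewer cells that express a gene and less RNA per cell cannot be told apart.

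**Figure D1:**
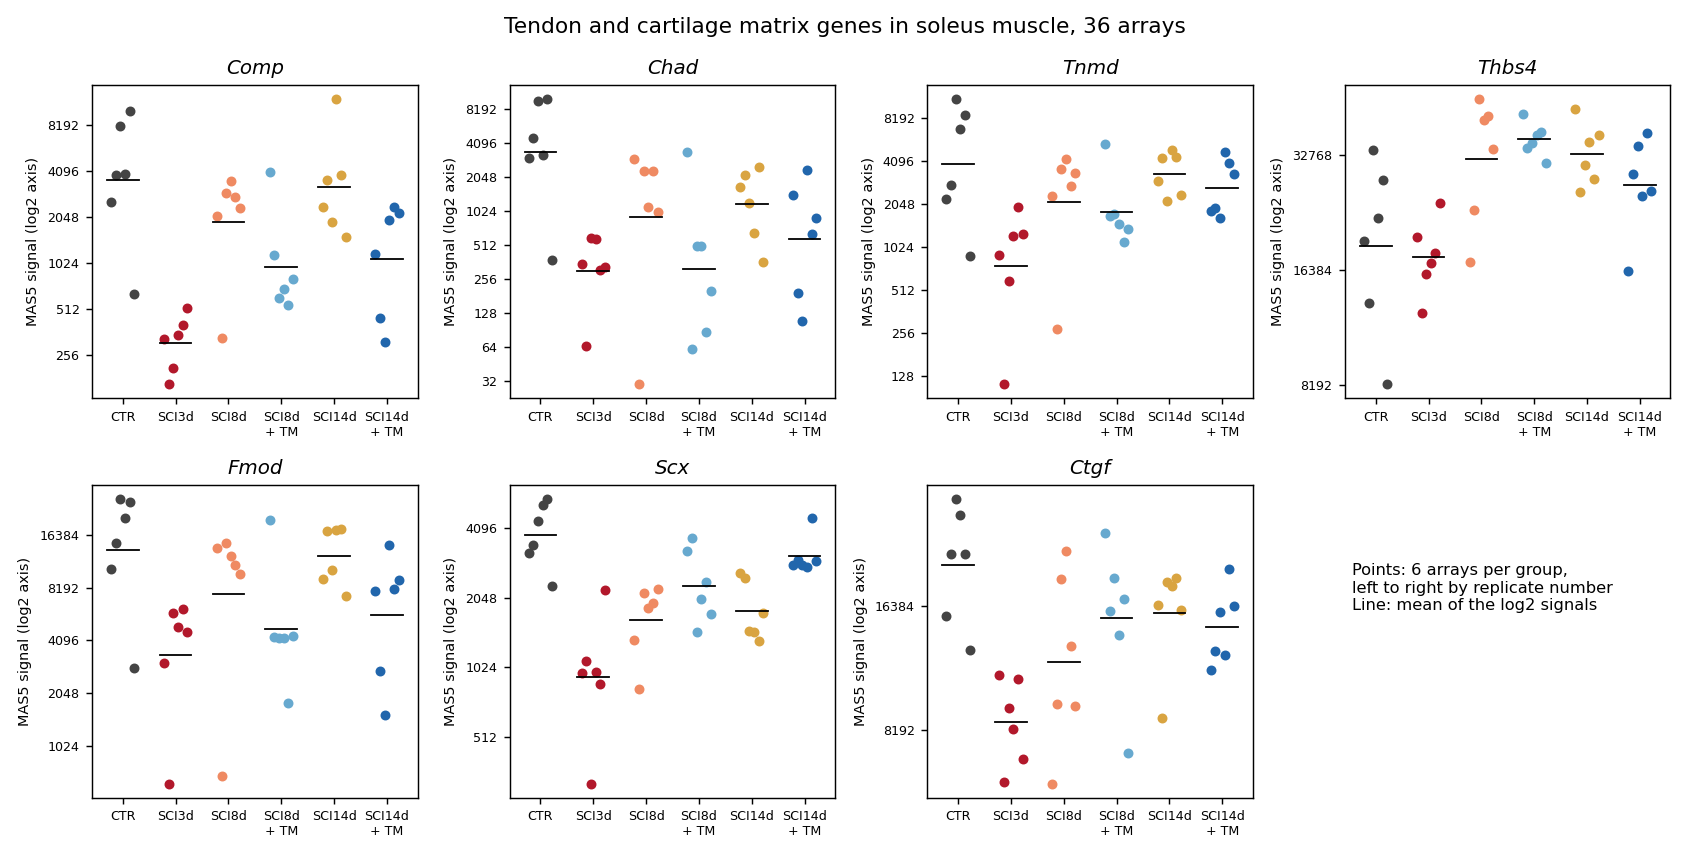
MAS5 signal (log2 axis) of the 7 genes on each of 36 arrays, grouped by injury and training, with a line at the mean of the log2 signals. The SCI3d line is the lowest of its panel for all 7 genes, by 0.10 below CTR for Thbs4, and single arrays such as SCI8d replicate 2 fall far below their group for Comp, Chad, Tnmd and Fmod.

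Comp, cartilage oligomeric matrix protein, covered the widest range between group means. Control signals ran from 637.1 over a median of 3878.8 to 10080.3, and SCI3d signals from 165.9 over 335.4 to 520.1, an 11.6-fold lower mean. Signals of SCI8d were 331.9, 2543.6 and 3528.6 (lowest, median, highest) and those of SCI14d 1502.6, 2954.7 and 12004.5. All 6 SCI14d arrays were above all 6 SCI3d arrays, and 5 of 6 lay within the control range. The trained groups gave 539.9, 743.8 and 4039.4 in SCI8d + TM and 310.7, 1564.3 and 2359.1 in SCI14d + TM, and neither was called against the untrained group of its day (limma, adjusted p = 1 and 0.779). In SCI8d + TM the median was below that of SCI8d although 1 array, replicate 1, was above every SCI8d array. In SCI14d + TM 3 arrays lay below the lowest SCI14d array, and the other 3 lay within its range.

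Chad, which links cells to collagen through integrins, had the most variable signal. Controls gave 380.6, 3891.2 and 9978.6, and SCI3d gave 66.3, 337.2 and 590.1. SCI8d signals were 30.5, 1709.0 and 2933.3 and SCI14d signals 366.0, 1440.2 and 2524.2. Of the 6 controls 5 lay above every SCI14d array. Training groups gave 61.3, 350.5 and 3419.2 at day 8 and 109.7, 763.8 and 2358.2 at day 14. The highest array was 96.2 times the lowest within SCI8d and 55.8 times within SCI8d + TM.

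Fmod, which regulates collagen fibril thickness and cross-linking, gave 2856.9, 17585.0 and 26168.5 in CTR and 628.5, 4733.3 and 6193.6 in SCI3d. The values were 691.8, 11715.4 and 14682.7 in SCI8d and 7305.9, 13678.0 and 17728.5 in SCI14d. All 6 SCI14d arrays were above all 6 of SCI3d and below the highest control. Of the SCI8d + TM arrays 4 lay between 4232.2 and 4350.4, with 1814.3 below and 19762.2 above them, and the SCI14d + TM arrays ran from 1542.3 over 7921.1 to 14277.3. Those 4 trained arrays of day 8 were below all SCI8d arrays except replicate 2.

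Tnmd, whose loss in mice impairs tendon fibrils, gave 884.4, 4828.7 and 11186.1 in CTR and 112.4, 1057.8 and 1970.6 in SCI3d. SCI8d signals were 273.6, 3079.7 and 4275.1. In SCI14d they were 2173.0, 3673.6 and 4924.1, all above SCI3d and all within the control range. The trained groups gave 1111.6, 1590.8 and 5387.6 at day 8 and 1635.1, 2635.4 and 4735.7 at day 14. All 12 trained arrays also lay within the control range.

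Thbs4, a thrombospondin of tendon and muscle matrix, was not called lower at day 3. Its signals were 8257.2, 20980.5 and 33845.7 in CTR and 12655.1, 17634.7 and 24595.9 in SCI3d. All 6 SCI3d arrays lay within the control range. They were 17221.9, 37322.5 and 45997.7 in SCI8d and 26222.4, 33188.1 and 43284.6 in SCI14d, and in SCI14d every array was above every SCI3d array. Training groups gave 31316.4, 36142.3 and 41962.4 at day 8 and 16344.0, 27905.4 and 37498.6 at day 14.

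Scx gave 2302.5, 3923.6 and 5491.5 in CTR and 320.7, 971.4 and 2223.7 in SCI3d. SCI8d signals were 819.9, 1898.3 and 2224.3, and SCI14d signals 1326.2, 1616.2 and 2620.6. All 6 SCI8d arrays, and 4 of the 6 SCI14d arrays, were still below the lowest control. Trained muscle gave 1458.8, 2208.9 and 3724.8 at day 8 and 2774.8, 2904.2 and 4523.0 at day 14. All 6 SCI14d + TM arrays lay within the control range and above every SCI14d array.

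Ctgf gave 12779.1, 21851.8 and 29674.6 in CTR and 6112.7, 8733.1 and 11113.2 in SCI3d. SCI8d signals spread over 6076.6, 11258.3 and 22192.0, with 3 of 6 arrays below the lowest control. In SCI14d they were 8774.4, 17331.2 and 19143.5, with 5 of 6 arrays within the control range. The trained groups gave 7192.5, 16453.5 and 24493.6 at day 8 and 11448.9, 14248.5 and 20046.1 at day 14, and overlapped with the untrained group of their day.

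The later comparisons with controls used the same 6 control arrays as the contrast that chose the genes, so their values stand beside it and do not add to it. At day 8 only Scx was past the threshold, at a log2 difference of -1.23 ± 0.30 (limma, adjusted p = 0.0114), 1 of 7 genes beside 6.29% of all probe sets in either direction and 3.28% lower. Thbs4 was at 0.75 ± 0.25 (adjusted p = 0.0641) and Ctgf at -0.78 ± 0.27 (adjusted p = 0.0771). Thbs4 passed the threshold without CTR replicate 3 or 5 or SCI8d replicate 1, at 0.87 to 0.93, and Ctgf without CTR replicate 6 or SCI8d replicate 3 or 4, at -0.96 to -0.91. Scx was also the 1 gene of 7 without overlap between SCI8d and CTR, beside 1.54% of probe sets. Chad (-1.92), Comp (-0.91), Tnmd (-0.88) and Fmod (-0.83) had adjusted p between 0.241 and 0.51 in limma. Their differences to controls moved both ways with single arrays. With each array left out in turn they ran from -1.40 to -0.40 for Comp and -2.56 to -0.95 for Chad. For Tnmd they ran from -1.31 to -0.29 and for Fmod from -1.28 to -0.14. The smallest differences were those without SCI8d replicate 2, and the largest those without CTR replicate 6, the lowest control for each of these genes.

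At day 14 Scx was again the 1 gene called, at -1.10 ± 0.30 (limma, adjusted p = 0.0368), beside 3.19% of probe sets in either direction and 1.67% lower. This call was lost without any single control of replicates 1 to 5 or any single SCI14d array of replicates 3 to 6, at adjusted p of 0.0512 to 0.0822. Thbs4 was at 0.80 ± 0.25 (adjusted p = 0.0674) and passed the threshold without CTR replicate 3 or 5, SCI8d replicate 1 or SCI14d replicate 2, at 0.80 to 0.97, and the remaining genes lay between -1.54 and -0.12. The intervals were wide. That of Comp reached from -1.38 to 1.10, that of Fmod from -1.44 to 1.20 and that of Tnmd from -1.44 to 0.996, so a level close to controls was not established. Over the 7 genes the median difference to CTR was -2.05, -0.88 and -0.22 at days 3, 8 and 14, beside -0.04, 0.04 and 0.08 over all probe sets.

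The return from day 3 is given as values, since the low day 3 level chose the genes. From SCI3d to SCI14d the log2 difference was 3.39 for Comp, 2.16 for Tnmd, 1.95 for Chad, 1.86 for Fmod, 0.95 for Scx, 0.90 for Thbs4 and 0.88 for Ctgf. In 4 of the 7 genes, Comp, Tnmd, Fmod and Thbs4, SCI14d lay wholly above SCI3d, beside 2.34% of probe sets. From SCI3d to SCI8d the differences were 2.63, 1.50, 1.57, 1.15, 0.82, 0.85 and 0.49 in the same order of genes. The step from day 8 to day 14 shares no array with the day 3 contrast. All 7 genes were higher on average in SCI14d than in SCI8d, by 0.05 (Thbs4) to 0.76 (Comp), with a median of 0.39 beside 0.05 over all probe sets. Limma called 0 of 7, beside 0% of all probe sets, 0 of 7 were under an unadjusted p of 0.05 beside 8.75%, and the exact two-sided permutation p of the 7 genes ran from 0.277 to 0.855. These values rested on SCI8d replicate 2. Without it the median was 0.023, and the difference was 0.262 for Comp, 0.065 for Tnmd, 0.023 for Fmod and 0.323 for Ctgf, and below 0 for Chad (-0.60), Scx (-0.07) and Thbs4 (-0.04).

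**Figure D2:**
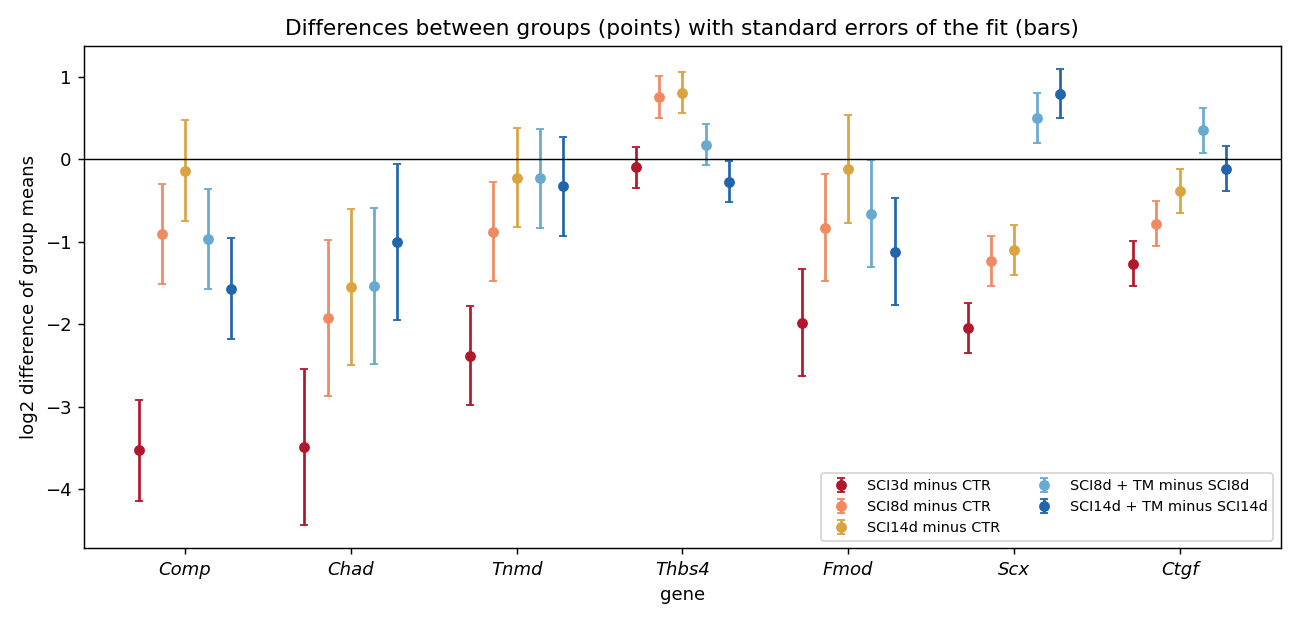
Log2 differences between group means (points) with the standard error of the fit (bars) for the 7 genes in 5 comparisons. The SCI3d difference is lowest for 6 genes, and the training differences are below 0 for Comp, Chad, Tnmd and Fmod and above 0 at both days only for Scx.

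Each trained group was set against untrained rats of its own day, which uses no control and no SCI3d array. After 3 sessions, SCI8d + TM minus SCI8d was -0.97 ± 0.61 for Comp, -1.53 ± 0.95 for Chad, -0.66 ± 0.65 for Fmod and -0.23 ± 0.60 for Tnmd, and 0.17 ± 0.25 for Thbs4, 0.50 ± 0.30 for Scx and 0.35 ± 0.27 for Ctgf. Limma called 0 of 7, beside 0% of all probe sets, with each of the 7 at an adjusted p of 1, 0 of 7 under an unadjusted p of 0.05 beside 4.33%, and exact two-sided permutation p of 0.145 to 0.786. The median of the 7 was -0.23, beside 0.03 over all probe sets. A pair of arrays bore on this comparison, because SCI8d replicate 2 was the lowest of its group for Comp, Chad, Tnmd and Fmod and SCI8d + TM replicate 1 the highest of its group for all of these. With both left out, which was decided after seeing the data, the differences were -1.88 for Comp, -3.20 for Chad, -1.76 for Fmod and -1.14 for Tnmd, and limma's adjusted p was at least 0.581.

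After 5 days of training, SCI14d + TM minus SCI14d was 0.80 ± 0.30 for Scx, a 1.74-fold higher mean with all 6 trained arrays above all 6 untrained arrays. The exact two-sided permutation p was 0.00216, the smallest that 6 against 6 arrays can give, and 1 of 21 such tests run on the 7 genes and 3 comparisons. Separation with the trained group higher occurred in 0.129% of probe sets. In limma the adjusted p over all probe sets was 0.755 (unadjusted 0.0122), so Scx was not called, and 0 of 7 genes were, beside 0.00322% of probe sets. Comp was at -1.57 ± 0.61 (exact permutation p = 0.0346, limma adjusted p = 0.779) and Fmod at -1.12 ± 0.65 (exact permutation p = 0.0498, adjusted p = 0.886). Chad was at -1.004, Tnmd at -0.33, Thbs4 at -0.27 and Ctgf at -0.11, with exact permutation p of 0.221 to 0.606. Under an unadjusted p of 0.05 were 2 of 7 genes, Comp and Scx, beside 5.96% of probe sets. The median of the 7 was -0.33, beside -0.03.

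Averaged over both days, training differences were 0.65 ± 0.21 for Scx, -1.27 ± 0.43 for Comp, -1.27 ± 0.67 for Chad and -0.89 ± 0.46 for Fmod. Their unadjusted p in limma were 0.0045, 0.00579, 0.066 and 0.0611. Tnmd was at -0.28, Ctgf at 0.12 and Thbs4 at -0.05. The limma adjusted p was 0.996 for each of the 7 genes, so none is singled out. The training difference of day 14 minus that of day 8 was tested as an interaction term, and 0 of 7 genes were called in limma, beside 0% of all probe sets, with 0 of 7 under an unadjusted p of 0.05 beside 5.34%, and a lowest adjusted p of 0.945. Comparisons of trained groups with controls again used the control arrays of the contrast that chose the genes, so their values do not add to it. Against controls, SCI8d + TM was past the threshold for Comp (-1.87, adjusted p = 0.0391 in limma) and Chad (-3.46, adjusted p = 0.0143), both lower. Thbs4 (0.93, adjusted p = 0.0128 in limma) was past it and higher. These are 2 of 7 beside 5.71% of probe sets lower, and 1 of 7 beside 6.48% higher. In SCI14d + TM none of the 7 was called, beside 0.358%, with 3 under an unadjusted p of 0.05 beside 12.1%. Scx was then at -0.30 with an interval from -0.92 to 0.31, and Chad at -2.55 with an interval from -4.47 to -0.63.

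Within groups the genes varied together from array to array. After each group's mean was subtracted, Pearson's r over the 36 arrays was 0.90 for Tnmd with Fmod, 0.90 for Chad with Fmod, 0.87 for Comp with Fmod and 0.84 for Comp with Tnmd. Spearman's rho was 0.86, 0.79, 0.83 and 0.88 in the same order, and the permutation p of each was 1e-05, the smallest that 100000 shuffles within groups can give. Chad with Tnmd (r = 0.76, rho = 0.61) and Comp with Chad (r = 0.74, rho = 0.58) followed, at permutation p of 1e-05 and 6e-05 for r. All 21 pairs of the 7 genes were computed, and the p-values are not adjusted. Arrays are rats and share no animal, but a pair of signals on 1 array shares that array's RNA, dissection and scaling.

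Comp, Chad, Tnmd and Fmod formed a block in which all 6 pairs had r of 0.74 or more. Scx was outside it, at r = 0.24 with Chad (permutation p = 0.169), 0.31 with Fmod (p = 0.0977), 0.47 with Tnmd (p = 0.0199) and 0.50 with Comp (p = 0.00101). Thbs4 went most closely with Ctgf (r = 0.64, rho = 0.59, permutation p = 3e-05) and with Tnmd (r = 0.60, rho = 0.55), and with Chad its r was 0.28 (p = 0.148). Among the other 14216 genes, Fmod was the closest to Tnmd and the second closest to both Comp and Chad, and Tnmd, Chad and Comp ranked 2, 3 and 5 for Fmod. For Scx the best placed of the 6 was Thbs4 at rank 173, and for Ctgf it was Thbs4 at rank 19.

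Leaving out the 2 arrays farthest from the median lowered r to 0.84 for Tnmd with Fmod, 0.84 for Chad with Fmod, 0.81 for Comp with Fmod, 0.75 for Comp with Tnmd, 0.62 for Chad with Tnmd and 0.61 for Comp with Chad. Without SCI8d replicate 2 and SCI8d + TM replicate 1, the last was 0.588. With the 2 farthest arrays left out, Chad with Scx went to -0.03. Within the 18 untrained injured arrays r was 0.93 for Tnmd with Fmod and 0.64 for Comp with Chad, and within the 12 trained arrays 0.88 and 0.74. Thbs4 had r of -0.17 with Fmod in the trained arrays, and 0.33 in the untrained injured ones. In the 6 controls all 21 pairs were at 0.77 or above, where replicate 6 was low and replicates 3 and 5 high for Comp, Chad, Tnmd and Fmod alike.

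**Figure D3:**
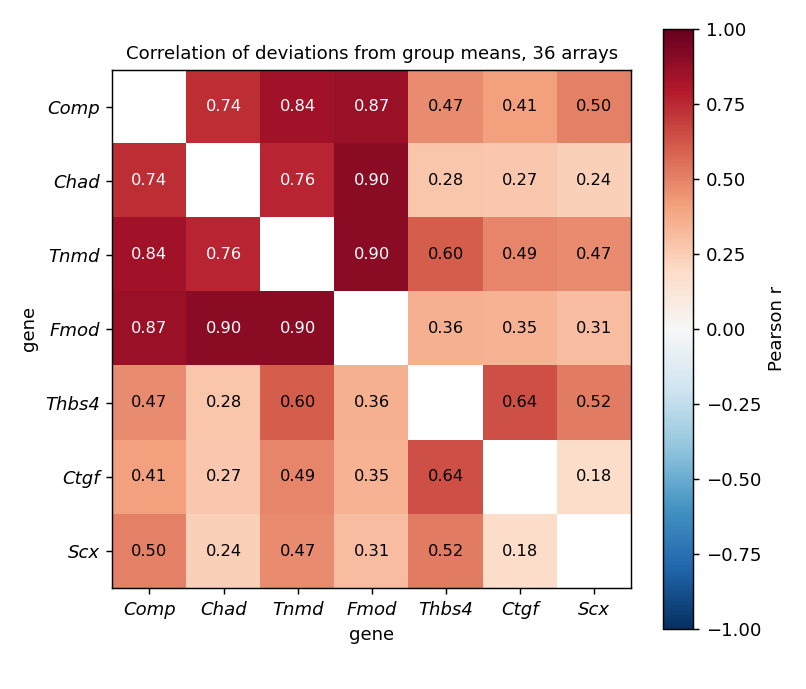
Pearson r between the 7 genes over 36 arrays after subtraction of group means. Comp, Chad, Tnmd and Fmod form the block of high values (0.74 to 0.90), and Scx with Ctgf is the lowest pair at 0.18.

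The deviations show which rats carried this. In CTR replicate 6 the log2 deviation from the group mean was -2.47 for Comp, -3.17 for Chad, -2.15 for Tnmd and -2.23 for Fmod, beside -0.74 for Scx. In SCI8d replicate 2 it was -2.51, -4.89, -2.96 and -3.45, beside -0.99 for Scx and -0.44 for Thbs4. In SCI3d replicate 2 Scx was slightly above its group mean (0.24) while Chad, Fmod and Tnmd were at -2.20, -2.44 and -2.74. In SCI8d + TM replicate 1 the 4 genes were at 2.06, 3.45, 1.57 and 2.05. The GAPDH ratio of these 4 arrays was 0.13 to 0.21 and their array medians 187.1 to 205.4, within the range of the remaining arrays. Comp and Chad parted on SCI14d replicate 4, at 1.90 and -0.84, and on SCI8d + TM replicate 2, at 0.24 and -2.35. The GAPDH ratio was 0.43 and 0.12 on these arrays. On CTR replicate 3, where it was 0.69, Comp and Chad were at 1.18 and 1.49. A relation to the ratio was not tested.

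**Figure D4:**
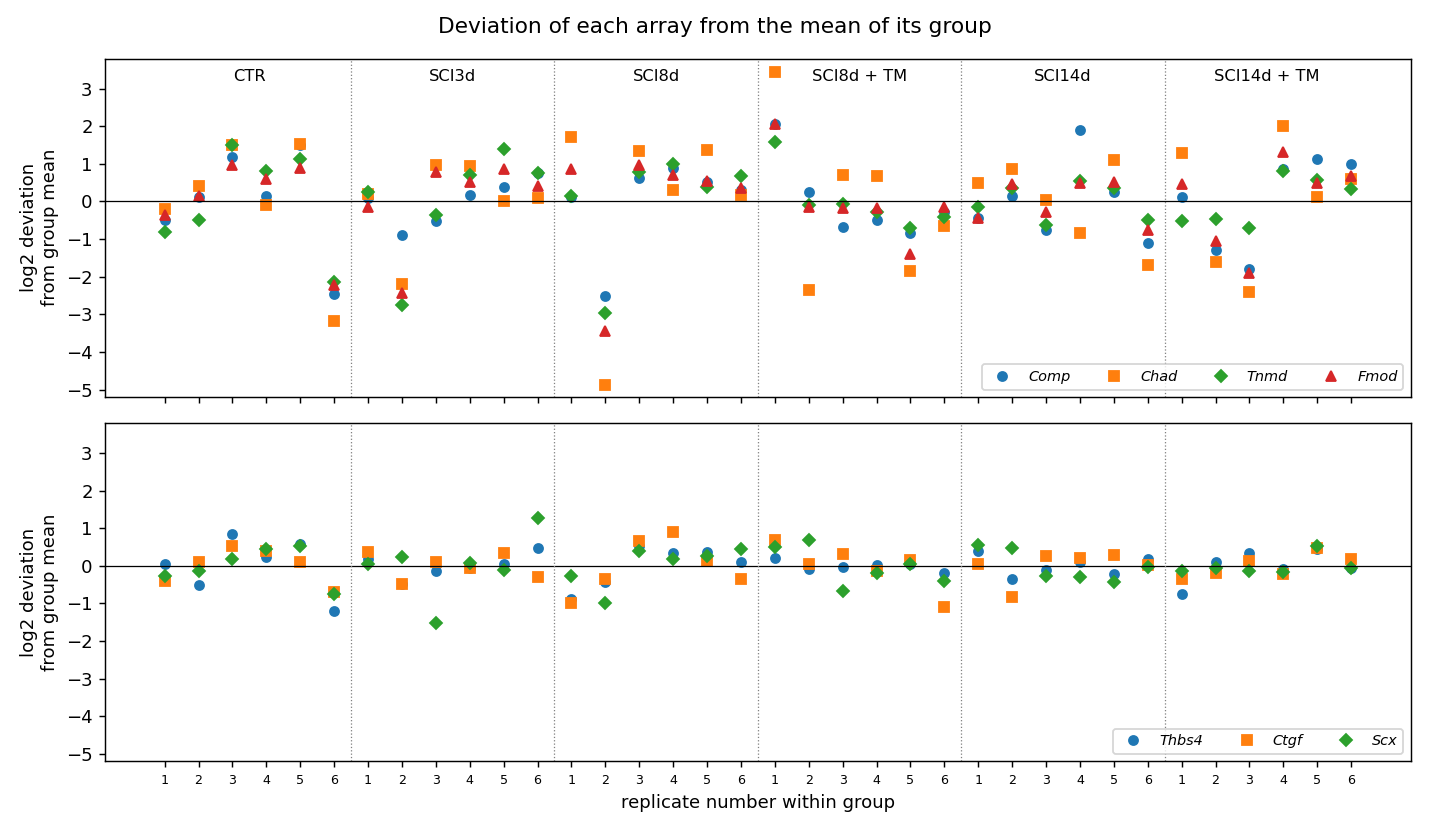
Log2 deviation of each array from the mean of its group, for Comp, Chad, Tnmd and Fmod (upper) and Thbs4, Ctgf and Scx (lower), on 1 scale. The first 4 genes move together, down to -4.89 for Chad in SCI8d replicate 2, and the lower 3 stay between -1.53 and 1.26.

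The genes of most similar pattern were sought among 10368 other genes above the 40th percentile, by r with the mean deviation of the 7 over 36 arrays. Deviations were not scaled, so Chad, Comp, Tnmd and Fmod, which varied most, weigh most in that mean. Cilp2, a relative of the cartilage intermediate layer protein, had r = 0.93, Ecrg4 0.92, and Col11a2, a chain of the fibril-forming collagen XI of cartilage, 0.88. Cpxm2, Loxl3 (a lysyl oxidase relative, of the enzymes that cross-link collagen), Itgbl1, Ccdc3, Chodl, Prelp (a matrix leucine-rich repeat protein) and Col22a1, a collagen of the junction of muscle and tendon, followed at 0.82 to 0.77. Group means did not enter r. The SCI3d mean was the lowest of the 6 groups for 9 of these 10 genes, and Ccdc3 was at 8.41 in both SCI3d and SCI8d + TM. The share of all genes with their lowest mean in SCI3d was not computed, so nothing is read from this count. The mean log2 signal of Cilp2 was 10.54 in CTR, 7.36 in SCI3d, 9.26 in SCI8d, 8.17 in SCI8d + TM, 9.93 in SCI14d and 8.90 in SCI14d + TM. For Col22a1 it was 10.80, 8.59, 9.94, 9.83, 10.32 and 10.67.

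Of 23 further tendon and fibrous matrix genes, 8 fell at day 3, among them Abi3bp (-1.50), Omd (-1.38), Prelp (-1.31) and Col14a1 (-1.30), a fibril-associated collagen, beside 9.24% of probe sets, and 0 rose. At day 8, 4 rose and 0 fell, namely Tnc (2.39), Col5a2 (1.52), Col5a1 (1.30) and Col3a1 (1.21), of which the last 3 encode fibrillar collagen chains, beside 3.01% of probe sets higher. At day 14, Col5a2 (1.42) and Col3a1 (1.13) were higher, beside 1.52% of probe sets, and 0 were lower. On average 7 of the 23 were below controls at day 8 and 3 at day 14. Cilp2, described above, is 1 of the 23. The medians of the 23 were -0.67, 0.60 and 0.75 at the 3 days, beside -2.05, -0.88 and -0.22 for the 7 genes, and these comparisons share the controls. The lists were not tested against each other. With training 0 of the 23 were called at either day, beside 0% of all probe sets at day 8 and 0.00322% at day 14. The medians were 0.33 and -0.07. The mean deviation of the 23 went with Thbs4 at r = 0.87, Ctgf at 0.72, Tnmd at 0.57, Scx at 0.54, Comp at 0.43, Fmod at 0.32 and Chad at 0.20.

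Of 16 further cartilage genes, 3 fell at day 3, namely Col11a1 (-2.19), Col11a2 (-1.80) and Cytl1 (-0.70), beside 9.24% of probe sets lower. Cytl1 was also the 1 of 16 lower at day 8 (-0.99), beside 3.28%, and at day 14 (-0.85), beside 1.67%. Of the defining cartilage genes, Acan (aggrecan) had group medians of 66.9 to 138.6 and Col2a1 (collagen II) of 62.3 to 178.8, with single control arrays up to 245.0 and 325.9. Detection calls were not used here, so whether either was present was not settled. The mean deviation of the 16 correlated with that of the 7 genes at r = 0.79, and at 0.68 without the 2 farthest arrays. By gene, r was 0.67 to 0.78 for Comp, Chad, Tnmd and Fmod, 0.45 for Scx, 0.38 for Thbs4 and 0.31 for Ctgf. Col11a2, described above for its similar pattern, is 1 of the 16. Of 14 CCN and TGF-beta genes, the mechanically responsive Ankrd1 was higher at day 3 (3.52) and day 8 (2.79), while Ccn3 (-1.59) and Ltbp2 (-1.57) were lower at day 3, which leaves 11 that were not called at day 3. These are 1 of 14 beside 7.22% of probe sets higher and 2 of 14 beside 9.24% lower.

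Markers of other cells moved with the genes in part. Of 7 adipocyte markers 5 fell at day 3, such as Adipoq (-2.80), beside 9.24% of probe sets, and their summed signal ran from 15475.4 to 45441.5 in CTR and from 7421.7 to 19133.1 in SCI3d. Within groups their mean deviation had r = 0.53 with Comp, 0.53 with Fmod and 0.50 with Chad, and -0.04 with Scx. The summed signal of 11 fibroblast markers ran from 56184.4 to 89041.0 in CTR and 51279.9 to 60727.4 in SCI3d, with 1 of 11 lower (Pi16, -1.70) beside the same 9.24%. At day 8 it ran from 59915.2 to 87818.6, with 2 of 11, Fap (1.85) and Mfap5 (0.89), higher beside 3.01% of probe sets. Within groups r of the fibroblast markers was 0.70 with Thbs4, 0.53 with Comp and 0.26 with Chad. Of 5 erythrocyte markers 3 were higher at day 3, beside 7.22% of probe sets, and the sum ran from 35753.6 to 48168.6 in CTR and 40647.5 to 76599.9 in SCI3d. The part of these cells in the results was not tested.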

How the data were processed

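RNA of left soleus muscle was hybridized to 36 Affymetrix rat arrays. The deposited intensity values are linear signals that the authors made with MAS5, with each array scaled by 1 factor. Trimmed by 2% at each end, array means lay between 800.27 and 800.37. The table holds 31099 probe sets and 0 other value columns. The paper gives the same number as passing its filter of at least 4 present calls. Detection calls were not used here, so that filter was not checked and presence is not assumed for any probe set. After 57 control probe sets were left out, 31042 were tested, 20826 of them with 1 symbol.

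The log2 of each signal was used, with no offset and no further filter. A model of the 6 groups (30 residual degrees of freedom) was fitted with limma 3.58.1 in R 4.3.3, with an intensity trend and 5.45 prior degrees of freedom, and adjusted over all probe sets by Benjamini-Hochberg at 0.05. A call or a verb of change means that threshold. The ± values are standard errors of this fit and intervals are its 95% confidence intervals. The script was tested on simulated data with 200 changed probe sets. Exact permutation tests used all 924 arrangements, and correlations 100000 shuffles within groups (SciPy 1.17.1, Python 3.11.15, matplotlib 3.10.9).

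The genes and the lists were chosen with earlier results of these data known. All 7 genes are named, and of each other list up to 4 genes of smallest p. Similar genes are the 10 of highest r. Ctgf was matched by its gene identifier to Ccn2. Alternatives were quantile normalization, median centring, scaling to Gapdh, an offset of 32, the dimmest 40% left out, no trend, the 2 groups alone, array weights, the methods' t-test, the GAPDH ratio as a covariate, the replicate number as a block, replicates 5 and 6 as a term, and each array left out. The number of arrays limits the precision.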

Additional observations from a re-analysis of the deposited data

Results flagged for a closer look

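Of 42 groups of 6 arrays (7 genes, 6 groups), 12 held an array far from the rest on the log2 scale, where the gap to its nearest neighbour was a large share of the group's range (above Dixon's limit for 6 values). Chance gives about 1 in 20 groups, and the genes are correlated, so the 12 are not independent. SCI8d replicate 2 was the lowest array for Fmod (gap 0.866 of the range), Tnmd (0.781), Comp (0.775) and Chad (0.767). SCI8d + TM replicate 1 was the highest for Tnmd (0.717), Fmod (0.634) and Comp (0.626). SCI3d replicate 2 was the lowest for Chad (0.7) and Fmod (0.689), and CTR replicate 6 the lowest for Chad (0.632). Scx was highest in SCI14d + TM replicate 5 (0.843), whose signal of 4523.0 stands above 5 arrays between 2774.8 and 2996.3. Ctgf was lowest in SCI14d replicate 2 (0.772).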

How the results depend on the processing

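The number of the 7 genes called in SCI8d against CTR was 1, and it was 2 under median centring, without the dimmest 40%, with array weights and by the methods' t-test unadjusted, and 0 by that test adjusted. In SCI14d against CTR it was 1, and 2 under quantile normalization, without the dimmest 40%, with array weights and by the unadjusted t-test, and 0 without the intensity trend and by the adjusted t-test. Scaling to Gapdh also gave 1 but another gene, since Scx lost its call (-0.866, adjusted p = 0.107 in limma) and Thbs4 gained one (1.037, adjusted p = 0.0259). In SCI14d + TM against SCI14d it was 0, and 2 by the unadjusted t-test, a looser rule. In limma 5.96% of all probe sets had an unadjusted p under 0.05 in that comparison. With each array left out in turn the counts against CTR were 1 to 2 at day 8 and 0 to 2 at day 14. Shares of all probe sets under these alternatives are not given, so no gain or loss for these genes is read from the counts. The median training difference at day 8 was -1.14 with SCI8d replicate 2 and SCI8d + TM replicate 1 left out, an alternative added after seeing the data. Fmod at day 3 was not called without SCI3d replicate 1 or 2 or CTR replicate 2, 3, 4 or 5. Its differences were then -1.95 to -1.49. Nor was it called with the GAPDH ratio as a covariate (-1.84). By the methods' t-test adjusted, 4 of the 7 were called at day 3, without Fmod and Tnmd. The day 3 contrast chose the genes, so these calls only describe how the count moved, and nothing is read from them. The median of SCI14d against SCI8d was 0.39, and 0.023 to 0.715 with each array left out, lowest without SCI8d replicate 2.

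Signs turned where a difference was small. Against CTR, Thbs4 was at 0.006 in SCI3d with array weights, and in SCI14d Fmod was at 0.04 with quantile normalization, while scaling to Gapdh put Fmod at 0.115, Comp at 0.093 and Tnmd at 0.009. For SCI14d against SCI8d, Thbs4 was at -0.019 under median centring and -0.077 with array weights, Scx at -0.024 with array weights, and without the same pair of arrays Chad was at -0.60, Thbs4 at -0.039 and Scx at -0.066. With each array left out, SCI14d against CTR ran from -0.64 to 0.16 for Comp, -0.565 to 0.074 for Fmod and -0.654 to 0.078 for Tnmd, and SCI14d against SCI8d from -0.60 to 0.72 for Chad, -0.13 to 0.16 for Thbs4 and -0.066 to 0.222 for Scx. Thbs4 ran from -0.34 to 0.07 in SCI3d against CTR and from -0.004 to 0.28 with training at day 8. The cause was not tested. Single genes gave 588 values under the alternatives other than leaving out 1 array. Of these, 558 kept their direction and side of the threshold, 11 turned sign, 12 passed the threshold anew and 7 fell below it. Several of these alternatives leave the log2 difference itself unchanged by construction. Among them are the methods' t-test, no trend, the dimmest probe sets left out and the replicate number as a block. A sign could not turn there, so the 558 is not a count of values whose direction was tested. The median r over the 21 pairs kept its size under all 9 alternatives run.

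The replicate numbers were not taken as pairs. The correlation of deviations had a mean of 0.009 (-0.117 to 0.227) for arrays of the same number in different groups and -0.002 for others, and 10 of 36 arrays correlated best with their own number, where 6 are expected if the numbers are unrelated. With the replicate number as a block, 2 genes were called in SCI8d against CTR, Ctgf beside Scx. Each gene has 1 probe set, so a second one could not be tried. For a difference between 2 groups of 6 arrays, the interval reached more than 1 log2 unit to each side for Comp, Chad, Tnmd and Fmod. It was narrower for Scx, Ctgf and Thbs4.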
